A study of Homo sapiens with 2 samples.

Results

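The miR-30 family was examined in small RNA sequencing of Jurkat cells, an established human T-cell leukemia line. Its members were 8 listed mature arms, chosen by name and not by their values: the 5p arms hsa-miR-30a-5p, hsa-miR-30b-5p, hsa-miR-30c-5p, hsa-miR-30d-5p and hsa-miR-30e-5p and the 3p arms hsa-miR-30a-3p, hsa-miR-30d-3p and hsa-miR-30e-3p, written here without the species prefix. Earlier results of these data were known when the members were chosen. All 8 were among the 1450 mature miRNAs of the table, which also held 3 unlisted arms, miR-30b-3p, miR-30c-1-3p and miR-30c-2-3p, described beside them. The study infected Jurkat cells with a lentivirus for PELATON, a long noncoding RNA that the sample labels call lnc-CEBPB-13, or with a control lentivirus, and selected stable cells with an antibiotic. GEO holds 1 overexpression sample and 1 control sample, and each deposited group value was a mean over 2 libraries, whose whole reads could be recovered. The sources used here do not name the cultures behind these libraries, so p-values measure only the spread between these libraries, which may be technical. Limma, the test used, shares this spread over all miRNAs or ratios of a fit. An SE is therefore not the spread of that arm or ratio alone. PELATON was not measured in the table, so the group labels could not be checked against it.

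MicroRNAs of the miR-30 family are made as hairpins that are cut into a 5p and a 3p arm, of which one, the guide, is mostly kept in the silencing complex and the other, the passenger, is mostly discarded. The guide pairs with target mRNAs mainly through its seed, bases 2 to 8 from its 5′ end, and lowers their stability and translation. In miR-30 the 5p arm is the usual guide and all family members share 1 seed, so they are expected to recognize largely overlapping targets. The family is expressed in many tissues, and in lymphocytes members of it have been linked to the control of differentiation factors.

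The arms of miR-30a, miR-30c and miR-30e are shown because the 5p arms share their seed, printed in capitals, while the 3p arms fall into 2 seed groups (RefSeq, GRCh38.p14; each runs 5′ to 3′). MiR-30a-5p lies at chr6:71403595-71403616 on the minus strand and miR-30e-5p at chr1:40754371-40754392 on the plus strand. The single sequence of miR-30c-5p is encoded at chr1:40757300-40757322 on the plus strand, in MIR30C1, and at chr6:71377003-71377025 on the minus strand, in MIR30C2.
miR-30a-5p: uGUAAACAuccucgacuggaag
miR-30e-5p: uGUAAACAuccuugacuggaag
miR-30c-5p: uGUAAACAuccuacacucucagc
miR-30a-3p: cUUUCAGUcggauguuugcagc
miR-30e-3p: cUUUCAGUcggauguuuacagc
miR-30c-1-3p: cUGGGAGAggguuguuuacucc
miR-30c-2-3p: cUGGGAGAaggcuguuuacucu
Counted from 1 at the 5′ end, miR-30a-5p and miR-30e-5p differ only by C13U. MiR-30a-3p and miR-30e-3p differ only by G18A, and miR-30c-1-3p and miR-30c-2-3p by G9A, U12C and C22U. With 1 base between miR-30a and miR-30e on each arm, an error in a read of the abundant miR-30e could be counted as the scarce miR-30a, which was not tested. Reads of miR-30c-5p cannot be assigned to MIR30C1 or MIR30C2, but the 3p arms tell the hairpins apart.

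The libraries held 2052494 and 1177485 reads in overexpressing cells and 2615868 and 2663279 reads in control cells, and the top 10 miRNAs held 54.4% to 54.9% of each library. All 6 listed miRNA markers of blood and T cells were present, with summed normalized counts of 341917 and 326282 in overexpressing cells and 350788 and 367991 in control cells. Their log2 ratios of overexpression over control ran from −0.74 to −0.04 with a median of −0.36, and 1 was lower by limma. Markers of other tissues moved with the group: 5 of 7 heart and skeletal muscle markers were in the table, with sums of 4078 and 4891 in overexpressing cells and 56.0 and 33.1 in control cells, and miR-133b and miR-206 had no read in control cells. Red blood cell markers summed to 769 and 1126 in overexpressing cells and 158 and 121 in control cells, and smooth muscle and fibroblast markers to 437 and 502 in overexpressing cells and 115 and 151 in control cells. At 2-fold, 4 of 5 muscle, 4 of 5 smooth muscle and fibroblast and 2 of 3 red blood cell markers were higher. Over all miRNAs with a mean of at least 1, 174 of 1115 were 2-fold higher. By limma, 4 muscle, 2 smooth muscle and fibroblast and 1 red blood cell markers were higher. The share of all miRNAs higher by limma was not counted, so these counts have no such share beside them. The liver marker miR-122-5p had 52.7 and 183 normalized counts in overexpressing cells and 32.0 and 28.0 in control cells. Its log2 ratio of 1.94 was also past 2-fold, but it did not pass limma. None of the 5 epithelial markers, the myeloid marker miR-223-3p and the endothelial marker miR-126-3p differed 2-fold. The part of these in the miR-30 results was not tested. The cells were a single line, and where the reads of other tissues' markers came from was not tested. A change in the number of cells of a type and a change in RNA per cell cannot be told apart in such bulk libraries.

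In overexpressing cells, miR-30b-5p and miR-30c-5p were lower than in control cells, at 0.470 and 0.581 of the control mean. The most abundant guides, miR-30d-5p and miR-30e-5p, had normalized counts that overlapped between groups. None of the 8 listed arms was 2-fold higher, and 1, miR-30b-5p, was 2-fold lower, where 14.7% of the 1115 miRNAs with a mean of at least 1 were 2-fold lower. By limma with Benjamini-Hochberg adjustment over those 1115 miRNAs, 2 of the 8 arms were lower and none higher, where 3.05% of all were lower. The normalized counts of the 2 groups did not overlap in 6 of the 8 listed arms, all lower in overexpressing cells, where this held for 23.8% of all miRNAs. Overlap was not examined with other scalings. The median log2 ratio of the 8 arms was −0.53, against 0.06 over all miRNAs tested. Scaled to total reads, these medians were −0.30 for the 8 arms and 0.28 for all miRNAs. With that scaling 5 of the 8 log2 ratios were below 0, while those of miR-30d-5p and miR-30e-5p were 0.30 and 0.19.

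**Figure D1:**
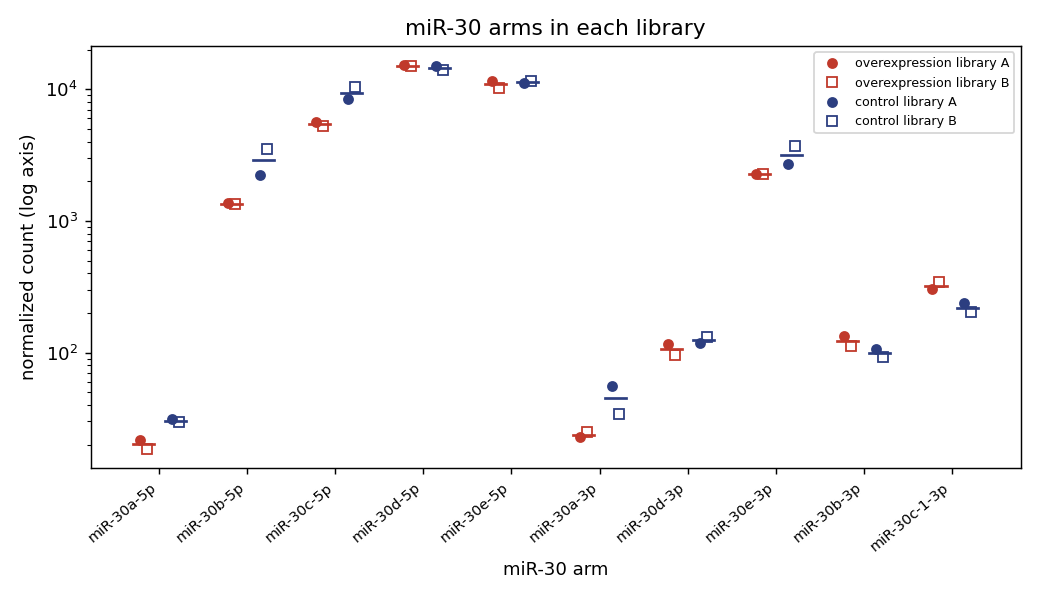
Normalized count of each miR-30 arm on a log axis, with overexpression libraries in red and control libraries in blue (circle, library A; square, library B; bar, mean of 2 libraries); miR-30c-2-3p is left out. For miR-30b-5p and miR-30c-5p both red points lie below both blue points, and for miR-30d-5p and miR-30e-5p they overlap.

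Of the guides, miR-30b-5p had normalized counts, reads divided by the library's size factor, of 1357 and 1354 in overexpressing cells and 2238 and 3528 in control cells. Both overexpression libraries were below both control libraries, and the control libraries differed from each other by more than the overexpression libraries did. The limma difference was −1.05 on the log2 scale (SE 0.23, 95% interval −1.57 to −0.53, limma adjusted p = 0.0349). MiR-30c-5p had normalized counts of 5669 and 5237 in overexpressing cells and 8467 and 10318 in control cells, again with no overlap. Its limma difference was −0.78 (SE 0.17, 95% interval −1.16 to −0.40, limma adjusted p = 0.0349). Both calls were lost when any 1 library was left out, with limma adjusted p of 0.0860 to 0.442 for miR-30b-5p and 0.134 to 0.414 for miR-30c-5p, and both were lost with a pseudocount of 0.5, with total-read scaling and without the trend in the prior variance. The log2 ratio stayed below 0 in each of these settings, and that of miR-30b-5p was −0.72 without control library B, which is less than 2-fold.

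MiR-30d-5p, the most abundant guide, ranked 27 in the table with 15241 and 14926 normalized counts in overexpressing cells and 14970 and 13892 in control cells. Its limma difference was 0.06 (SE 0.15, 95% interval −0.28 to 0.41, limma adjusted p = 0.869), and its log2 ratio was −0.03 with TMM scaling, −0.09 with upper-quartile scaling and 0.30 when scaled to total reads. MiR-30e-5p had 11582 and 10250.0 normalized counts in overexpressing cells and 11172.5 and 11460 in control cells. Its limma difference was −0.05 (SE 0.15, 95% interval −0.41 to 0.30, limma adjusted p = 0.899), with a log2 ratio of 0.19 when scaled to total reads. The direction of these 2 guides thus depended on the scaling. MiR-30a-5p was scarce, with 24 and 12 reads in overexpressing cells and 39 and 35 in control cells, or 21.8 and 18.6 against 31.2 and 29.7 normalized counts. Its groups did not overlap, but the limma difference of −0.57 had a 95% interval of −1.61 to 0.46 (limma adjusted p = 0.598), and the ratio of its pooled normalized reads was 0.676, with counting error alone spanning 0.441 to 1.02.

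In both groups the guides kept the order miR-30d-5p, miR-30e-5p, miR-30c-5p, miR-30b-5p and miR-30a-5p, and no 2 neighbors in this order overlapped within a group. As a share of the family's 5p reads, which describes its makeup without a scaling between libraries, miR-30d-5p took 45.0% and 47.0% in overexpressing cells and 40.6% and 35.4% in control cells. MiR-30e-5p took 34.2% and 32.2% in overexpressing cells and 30.3% and 29.2% in control cells. MiR-30c-5p took 16.7% and 16.5% in overexpressing cells and 23.0% and 26.3% in control cells. The share of miR-30b-5p was 4.01% and 4.26% in overexpressing cells and 6.07% and 8.99% in control cells, and miR-30a-5p stayed below 0.1% in all 4 libraries. None of these shares overlapped between groups. In normalized counts, 23.8% of all miRNAs were lower and 22.4% higher without overlap, and no such figure was computed for shares. Shares are also bound to each other, so that a lower share of miR-30b and miR-30c raises the others. The share differences were not tested. They were 7.98 percentage points for miR-30d-5p and 3.47 for miR-30e-5p, and −8.03 for miR-30c-5p and −3.40 for miR-30b-5p, where leaving out 1 library gave −4.86 to −1.94. Summed over the 5p arms, the family made up 1.82% and 1.74% of all reads in overexpressing cells and 1.76% and 1.74% in control cells, while the summed normalized counts were 33870 and 31785 in overexpressing cells and 36879 and 39228 in control cells.

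**Figure D2:**
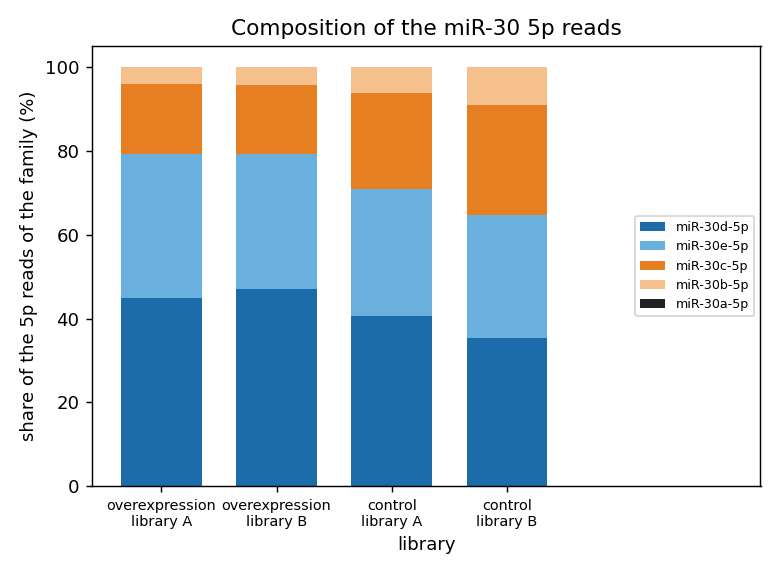
Share of each guide in the summed 5p reads of the family, in percent, as 1 stacked bar for each overexpression library (left) and control library (right), with miR-30d-5p and miR-30e-5p in blue at the bottom and miR-30c-5p and miR-30b-5p in orange above them. The blue parts are taller and the orange parts shorter in both overexpression libraries, and miR-30a-5p, at under 0.1%, is too thin to be seen.

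Among the 3p arms, miR-30e-3p was the most abundant, with 2266 and 2254 normalized counts in overexpressing cells and 2690 and 3697 in control cells. Both overexpression libraries were lower, and the limma difference was −0.48 (SE 0.19, 95% interval −0.92 to −0.04), which did not pass (limma adjusted p = 0.224). Its log2 ratio of −0.50 became −0.25 without control library B, and −0.25 when scaled to total reads. MiR-30a-3p, with 22.7 and 24.8 normalized counts in overexpressing cells and 56.0 and 33.9 in control cells, did not pass either (limma difference −0.85, SE 0.44, limma adjusted p = 0.367). Its control libraries differed from each other, and its log2 ratio was −1.20 without control library B and −0.50 without control library A. MiR-30d-3p had 115 and 96.1 normalized counts in overexpressing cells and 118 and 132 in control cells (limma difference −0.24, SE 0.27, limma adjusted p = 0.726). Its groups did not overlap by a narrow margin, and its log2 ratio was 0.00 when scaled to total reads.

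The unlisted 3p arms of miR-30b and miR-30c-1 lay on the other side. MiR-30c-1-3p had 302 and 344 normalized counts in overexpressing cells and 236 and 202 in control cells, and miR-30b-3p had 134 and 113 in overexpressing cells and 106 and 92.5 in control cells. Neither overlapped between groups, and 22.4% of all miRNAs were higher without overlap in this way. Neither passed limma, with differences of 0.56 (SE 0.22, limma adjusted p = 0.228) and 0.31 (SE 0.28, limma adjusted p = 0.644), and both log2 ratios were above 0 with every scaling tried. MiR-30c-2-3p had 0 reads in both overexpression libraries and 0 and 1 read in the control libraries, where 0 reads over the overexpression libraries allow a normalized count of up to 1.72.

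**Figure D3:**
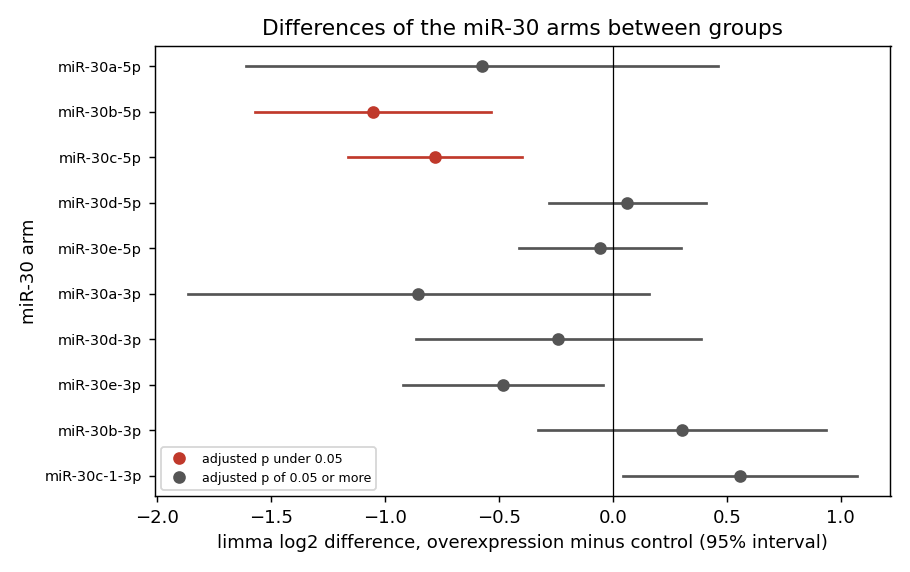
Limma difference of each miR-30 arm between overexpressing and control cells on the log2 scale, with bars that are 95% intervals and arms with an adjusted p under 0.05 in red. The intervals of miR-30b-5p, miR-30c-5p and miR-30e-3p lie below 0 and that of miR-30c-1-3p lies above 0, but adjusted over 1115 miRNAs only the first 2 pass.

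The ratio of the 5p to the 3p arm compares guide and passenger within a library, so the size factors cancel. It was lower in overexpressing cells for miR-30b and for miR-30c with its MIR30C1 passenger, and not for the other hairpins. For miR-30b, 10.2 and 12.0 reads of the 5p arm fell on each 3p read in overexpressing cells, against 21.0 and 38.1 in control cells, a limma difference of −1.36 on the log2 scale (SE 0.35, 95% interval −2.05 to −0.66, limma adjusted p = 0.00182). For miR-30c-5p over miR-30c-1-3p the ratio was 18.8 and 15.2 in overexpressing cells and 35.9 and 51.1 in control cells, a limma difference of −1.34 (SE 0.29, 95% interval −1.91 to −0.77, limma adjusted p = 0.000108). Since reads of miR-30c-5p may also come from MIR30C2, this is a ratio to the MIR30C1 passenger and not that hairpin's own ratio. In both cases the guide count was lower and the passenger count higher, though neither passenger passed limma by itself.

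The other hairpins had ratios that were higher or overlapped. For miR-30d the ratio was 132 and 155 in overexpressing cells and 127 and 106 in control cells (limma difference 0.30, 95% interval −0.38 to 0.99, limma adjusted p = 0.643). For miR-30e it was 5.11 and 4.55 in overexpressing cells and 4.15 and 3.10 in control cells (limma difference 0.43, 95% interval −0.07 to 0.93, limma adjusted p = 0.271), and the difference ranged over the libraries left out from 0.22 without control library B (limma adjusted p = 0.605) to 0.64 without control library A, where it passed (limma adjusted p = 0.00325). Without overexpression library A or B it did not pass (limma adjusted p = 0.767 and 0.695). MiR-30a was the hairpin without a dominant arm, at 0.960 and 0.750 in overexpressing cells and 0.557 and 0.875 in control cells (limma difference 0.28, 95% interval −0.98 to 1.54, limma adjusted p = 0.803). The 5p arm thus made up 49.0% and 42.9% of miR-30a reads in overexpression libraries A and B, on 49 and 28 reads of both arms. In control libraries A and B it made up 35.8% and 46.7%.

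**Figure D4:**
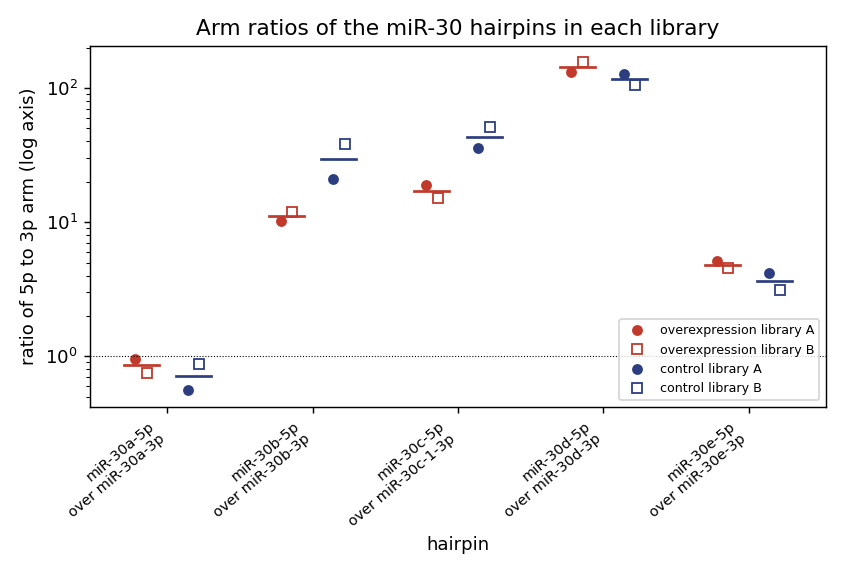
Ratio of 5p to 3p reads on a log axis for the 5 hairpins tested, with overexpression libraries in red and control libraries in blue (circle, library A; square, library B; bar, mean of 2 libraries). Both overexpression libraries lie below both control libraries for miR-30b and miR-30c, and above them for miR-30d and miR-30e. The ratios of miR-30d and miR-30e did not pass limma, and how often other hairpins lay apart in this way was not counted.

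The limma fit of arm ratios covered 167 hairpins whose weaker arm had a mean of at least 10, and 24.0% of them passed in either direction, so 2 of 5 miR-30 hairpins is to be read against that share. In this fit the spread came almost wholly from the trend over all hairpins. The SE, interval and p of a hairpin thus do not measure the spread of its own libraries. The median difference over the hairpins was −0.11 and the median size 0.58, and 14 of the 167 hairpins had a difference as low as that of miR-30c or lower. With no filter on the weaker arm or without the trend in the prior variance, neither miR-30 ratio passed, with limma adjusted p of 0.194 and 0.152 for miR-30b and 0.184 and 0.141 for miR-30c. Without overexpression library B both calls were lost, with limma adjusted p of 0.0890 for miR-30b and 0.162 for miR-30c. That of miR-30b was also lost without overexpression library A (limma adjusted p = 0.114) and without control library B (limma adjusted p = 0.182).

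**Figure D5:**
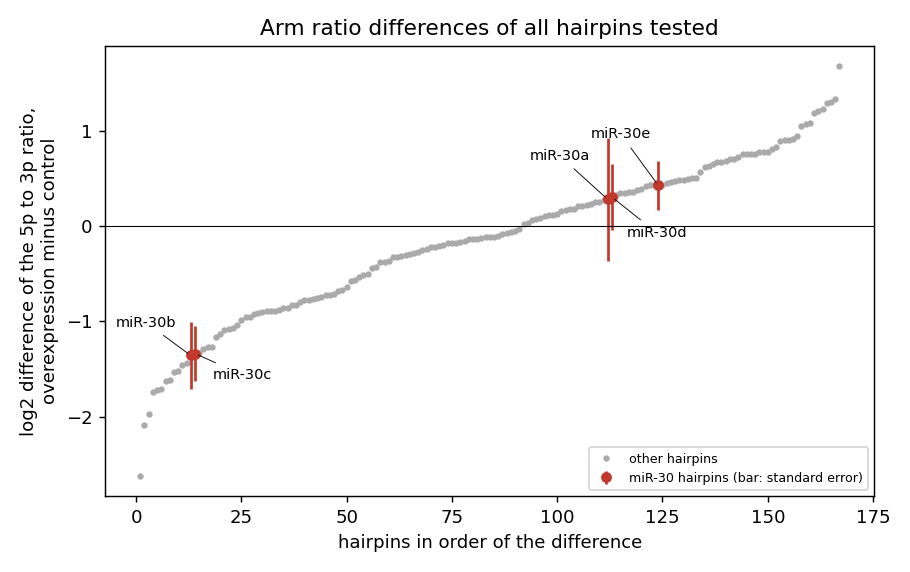
Log2 difference of the 5p to 3p ratio between overexpressing and control cells for the 167 hairpins tested, in order of the difference, with miR-30 hairpins in red and their standard errors as bars. MiR-30b and miR-30c lie near the low end, at −1.36 and −1.34, and miR-30a, miR-30d and miR-30e at 0.28, 0.30 and 0.43.

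The family comes from 3 loci of 2 hairpins each (GENCODE release 29, GRCh38). MIR30E, at chr1:40754355-40754446, and MIR30C1, at chr1:40757284-40757372, lie 2837 bp apart on the plus strand in introns of NFYC, which encodes a subunit of the CCAAT-binding factor NF-Y. MIR30B, at chr8:134800520-134800607, and MIR30D, at chr8:134804876-134804945, lie 4268 bp apart on the minus strand with no gene around them on that strand. MIR30C2, at chr6:71376960-71377031, and MIR30A, at chr6:71403551-71403621, lie 26519 bp apart on the minus strand in introns of the lincRNA genes LINC00472 and AL136164.2. Neighboring hairpins can be cut from 1 primary transcript, so their guides were compared as a ratio within each library.

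The guides of MIR30B and MIR30D moved apart, and so did miR-30c-5p and miR-30e-5p, although reads of miR-30c-5p may also come from MIR30C2 and not from the neighbor of MIR30E. The ratio of miR-30b-5p to miR-30d-5p was 0.0890 and 0.0907 in overexpressing cells and 0.150 and 0.254 in control cells, with a limma difference of −1.12 on the log2 scale (SE 0.24, 95% interval −1.63 to −0.60, limma adjusted p = 0.00136). It was −0.73 without control library B and −1.50 without control library A, and passed in both cases (limma adjusted p = 0.0229 and 0.00176). The ratio of miR-30c-5p to miR-30e-5p was 0.489 and 0.511 in overexpressing cells and 0.758 and 0.900 in control cells, with a limma difference of −0.72 (SE 0.18, 95% interval −1.10 to −0.34, limma adjusted p = 0.00339). Such differences were common: of 72 neighboring pairs tested, 40.3% passed, the median size was 0.70, and 22 pairs differed by at least as much as miR-30b-5p and miR-30d-5p. Both calls were lost with no filter, without the trend, and when either overexpression library was left out, with limma adjusted p of up to 0.276 and 0.227.

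At the third locus both arms of miR-30a were scarce and the MIR30C2 passenger was at the detection limit. The ratio of miR-30a-3p, its more abundant arm, to miR-30c-5p was 0.00401 and 0.00473 in overexpressing cells and 0.00662 and 0.00329 in control cells (limma difference −0.07, 95% interval −1.39 to 1.24, limma adjusted p = 0.933). MiR-30a-5p was 0.385% and 0.355% of miR-30c-5p in overexpressing cells and 0.369% and 0.288% in control cells. As a share of the reads of miR-30a-5p and miR-30e-5p, which differ by 1 base, miR-30a-5p was 0.188% and 0.181% in overexpressing cells and 0.279% and 0.258% in control cells.

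Other broadly expressed families with several loci were set beside the 5 miR-30 guides, whose median log2 ratio was −0.57. Of 9 let-7 guides, let-7 being a family known for its role in differentiation, 8 were lower by limma and 8 by 2-fold, with a median of −1.25. All 3 miR-29 guides were lower by limma and none by 2-fold, with a median of −0.85, and 1 of 2 miR-26 guides was lower by both, with a median of −0.72. Arm ratios passed in 6 of 8 let-7, 1 of 3 miR-29 and none of 3 miR-26 hairpins. Whether the families differed from miR-30 was not tested.

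Of the 140 other miRNAs with a mean of at least 1000, the 3 whose log2 normalized counts over the 4 libraries lay nearest to those of the summed miR-30 guides were miR-130b-3p, miR-96-5p and miR-223-3p. Their Euclidean distances were 0.0717, 0.0983 and 0.121 on the centered log2 scale. MiR-130b-3p averaged 2245 normalized counts in overexpressing cells and 2639 in control cells. This is a likeness over 4 libraries only.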

How the data were processed

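Small RNA libraries of Jurkat cells were sequenced by the authors. Their methods name a kit for small RNA, whereas an mRNA kit stands in the labels. The deposited signal values are normalized counts, which the authors made by dividing the reads of each miRNA by DESeq size factors and averaging over a group (genome build GRCh38.p14 per the submitters' processing notes). The aligner and the miRNA annotation are not given in the sources used here. The authors' own comparison columns (fold, log2 fold, p and adjusted p) were not used. The members and lists were chosen with earlier results of these data known.

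Each group value was resolved into whole reads of 2 libraries (100% of 1450 values with 1 solution, relative tolerance 1e-12), with size factors of 1.10 and 0.645 for overexpression and 1.25 and 1.18 for control. The libraries, called A and B without any pairing, differed within a group by more than counting error (chi-square per degree of freedom 32.3 for overexpression and 131 for control). At this depth, 3 reads in a group correspond to a normalized count of 1.72 in overexpressing and 1.24 in control cells. Intervals of shares are exact 95% binomial intervals and, like floors, cover counting error only.

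Log2 ratios are of group means with a pseudocount of 1, which understates differences of low miRNAs. Limma 3.58.1 in R 4.3.3, with a trended prior variance and Benjamini-Hochberg adjustment at 0.05, was fitted to log2(normalized count + 1) over the 1115 miRNAs whose mean of both groups reached 1, to arm ratios over 167 hairpins and to locus ratios over 72 same-strand pairs within 50 kb, both with a mean of at least 10 for the weaker one. An exact two-sided permutation test of 2 against 2 libraries cannot go below 0.333. The scripts were tested on simulated data. The text names every miR-30 arm in the table and the 3 nearest profiles, and gives other lists by counts and sums, except for markers at 0 reads and the single markers of liver, myeloid and endothelial cells, of which miR-122-5p and miR-126-3p were named after their values were seen. Alternatives were TMM, upper-quartile and total-read scaling with or without the 10 most abundant miRNAs, pseudocounts of 0.5 and 5, other filters, a 1.5-fold threshold, no trend, and leaving out each library.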

Additional observations from a re-analysis of the deposited data

How the results depend on the processing

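No direction was reversed for any called miR-30 value in the alternatives run. The number of miR-30 arms 2-fold apart, 1 as reported, became 2 with upper-quartile scaling, 0 with total-read scaling with or without the 10 most abundant miRNAs, and 3 at 1.5-fold, and it was 1 to 1 when each library was left out. Without control library B the arm counted was another one, miR-30a-3p at −1.20, since miR-30b-5p was then at −0.72. The number past limma, 2 as reported, became 0 with total reads (2 arms at an unadjusted p under 0.05), 0 without the top 10 (2 unadjusted), 0 with a pseudocount of 0.5 (3 unadjusted) and 0 with no trend (0 unadjusted), and was 0 to 0 with a library left out. Arm ratios past limma, 2 as reported, became 0 with no filter and 0 with no trend (2 unadjusted each), and 0 to 3 with a library left out. Locus ratios past limma, 2 as reported, became 0 with no filter and 0 with no trend (2 unadjusted each), and 0 to 2 with a library left out. The cause was not tested. Leaving out 1 library moved the share difference of miR-30a-5p between −0.0232 and −0.0143 percentage points, of miR-30b-5p between −4.86 and −1.94, of miR-30c-5p between −9.70 and −6.35, of miR-30d-5p between 5.39 and 10.6 and of miR-30e-5p between 2.49 and 4.44. Leaving out a library in the limma counts and adjusted p of single arms and in the counts of ratios past limma, and the no-trend and no-filter settings of the ratios, were chosen after seeing the data. A fit with a library left out assumes that the lone library varies like the other group. No paired analysis was possible because the recovered libraries carry no numbers. Depth limits miR-30a and miR-30c-2-3p most.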
